A study of Homo sapiens with 24 samples.

Results

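The 9 genes described here are the lineage and surface marker genes of high-grade serous ovarian carcinoma PAX8, WT1, SOX17, MECOM, MUC16, MSLN, WFDC2, FOLR1 and CCNE1. They were taken by gene symbol, as 9 of the 28277 genes in each of 2 tables of RNA-seq counts. Every one of them was found in both tables. Their levels were described in all 8 conditions of the study, each with 3 biological replicates, 24 libraries in all.

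The study compared PEO1 and PEO4, established human ovarian adenocarcinoma lines derived from 1 patient before and after resistance to platinum chemotherapy, so each line is a single model. PEO1 A cells were wild type PEO1, which carry a nonsense mutation in BRCA2, and PEO4 A cells were the PEO4 cells grown beside them, both untreated and both in medium with added sodium pyruvate. PEO4 itself has a reversion that brings back the BRCA2 reading frame, so the A pair differs in BRCA2 status and the B pair does not. PEO1 B cells were PEO1 cells with a spontaneous reversion that restores BRCA2 (genotype BRCA2+), and PEO4 B cells were their PEO4 partner, in medium without that supplement. Both B lines were sampled untreated (0 h) and after 2 and 6 h in medium with 5 µM pyridostatin (PDS), a small molecule that binds G-quadruplexes (G4s), the 4-stranded DNA structures formed by G-rich sequence. No control with vehicle alone is named in the labels.

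High-grade serous carcinoma is thought to arise mainly from the secretory cells of the fallopian tube, an epithelium of Müllerian duct origin, and pathologists recognise it by the factors and proteins that this epithelium keeps. PAX8 is the paired-box factor of the Müllerian and renal lineages, WT1 the zinc-finger factor that separates serous from other ovarian carcinomas, SOX17 an SRY-related factor that works beside PAX8, and MECOM a zinc-finger factor of the PRDM family encoded in the chromosome arm that serous tumours often gain. MUC16 carries the CA125 antigen, MSLN encodes mesothelin, the surface protein that binds MUC16, WFDC2 encodes the secreted protein HE4, and FOLR1 encodes folate receptor alpha. CCNE1 encodes cyclin E1, the partner of CDK2 at the entry to S phase, and is amplified in a subset of these tumours.

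In GRCh38 coordinates PAX8 lay on chr2:113215997-113278921 (minus strand), WT1 on chr11:32387775-32435539 (minus strand) and MECOM on chr3:169083507-169663712 (minus strand). MUC16 lay on chr19:8848844-9065751 (minus strand), MSLN on chr16:760734-768865, WFDC2 on chr20:45469753-45481532, FOLR1 on chr11:72189709-72196323 and CCNE1 on chr19:29811991-29824312 (all 4 on the plus strand). The counts are over whole genes, and the canonical transcripts ran from 567 bases in 4 exons for WFDC2 to 43816 bases in 84 exons for MUC16. The noncoding genes PAX8-AS1, WT1-AS and MECOM-AS1 overlap PAX8, WT1 and MECOM on the opposite strand, and whether strand was used in counting is not given in the sources used here. MECOM-AS1 had 0 counts in all 24 libraries, whereas PAX8-AS1 had 107 to 1037 and WT1-AS 244 to 867 counts per library, so PAX8 and WT1 could hold some reads of their antisense partners.

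Because PDS binds G4s, the RefSeq promoter sequences (GRCh38.p14) were searched for a G4-type motif, 4 runs of GGG (or longer) with 1 to 7 N between neighbouring runs, on both strands. Only the 250 bases before each annotated start were used. PAX8, WT1, MUC16, WFDC2, MECOM and CCNE1 had an entry, with 12 windows among them, and FOLR1, MSLN and SOX17 had none. The motif was present in 6 of the 12 windows, in each of the 6 genes in the window of the outermost start, beside 23.45% of all 35116 promoter windows. The outermost windows of 3 members are shown, 5′ to 3′ along the gene's own strand, because MECOM and WFDC2 were called between the lines in both pairs and differed between the lines in their response to PDS, and because CCNE1 has the most motif bases. They are chr3:169663713-169663962 (minus strand) for MECOM, chr20:45469503-45469752 for WFDC2 and chr19:29811741-29811990 for CCNE1, and capitals mark the bases inside a motif match.
MECOM: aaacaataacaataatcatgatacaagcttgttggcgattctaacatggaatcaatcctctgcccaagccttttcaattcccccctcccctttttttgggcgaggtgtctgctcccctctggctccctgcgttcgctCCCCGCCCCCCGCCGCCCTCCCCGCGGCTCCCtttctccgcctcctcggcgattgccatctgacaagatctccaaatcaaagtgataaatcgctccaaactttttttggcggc
WFDC2: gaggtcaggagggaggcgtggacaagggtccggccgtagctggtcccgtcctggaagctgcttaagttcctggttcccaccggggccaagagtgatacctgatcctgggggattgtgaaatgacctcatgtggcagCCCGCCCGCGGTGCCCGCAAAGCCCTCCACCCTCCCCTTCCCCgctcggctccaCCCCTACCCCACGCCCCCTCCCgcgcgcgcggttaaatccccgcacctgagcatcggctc
CCNE1: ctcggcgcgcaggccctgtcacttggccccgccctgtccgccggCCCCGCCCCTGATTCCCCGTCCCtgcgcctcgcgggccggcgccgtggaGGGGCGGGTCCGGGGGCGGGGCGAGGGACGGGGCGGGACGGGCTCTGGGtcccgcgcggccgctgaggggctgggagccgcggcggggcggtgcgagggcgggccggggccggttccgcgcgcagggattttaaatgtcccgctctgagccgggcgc
The match covered 32 of 250 bases in MECOM and 65 in WFDC2, in both on the strand opposite to the transcript, where the runs read as C. In CCNE1 it covered 72 bases over both strands of a window with 81.2% GC. PAX8, WT1 and MUC16 held 25, 22 and 28 bases of motif, also on the opposite strand. A match describes the sequence, and no binding of PDS or folding of DNA was measured in these files.

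The 6 A libraries held 32528913 to 63882077 counts. The 12 PDS-treated B libraries held 33260167 to 43713947 counts and the 6 untreated B libraries 18699929 to 22375644. Ribosomal RNA genes took 0.217 to 0.4735% of counts in the untreated and 0.01635 to 0.0369% in the treated B libraries, so depth and ribosomal share moved together with PDS treatment in both lines, and their part in the comparisons with untreated cells was not tested. Levels are given as CPM, counts scaled to a library of 1e6 reads, after TMM scaling within a table, as mean ± SD of 3 libraries, or as the mean alone where no SD is printed. A gene was called when edgeR's quasi-likelihood test gave a Benjamini-Hochberg adjusted p under 0.05 over all genes tested and the log2 fold change exceeded 1 in size. 8 of the 9 members passed the filter on low counts in both tables, and SOX17 passed in neither. As a check of the line labels, 513 genes differed between PEO4 A and PEO1 A by over 4 on the log2 scale and were tested in the B table, and 488 of them (95.13%) differed in the same direction between untreated PEO4 B and PEO1 B. BRCA2 itself, the gene whose status sets the A and B forms of PEO1 apart, was at 8.24 ± 0.297 CPM in PEO1 A and 13.45 ± 2.44 CPM in PEO4 A. In untreated B cells, scaled separately, it was at 8.25 ± 0.492 CPM in PEO1 and 8.17 ± 0.987 CPM in PEO4. Of the usual reference genes, TBP (the TATA-binding protein) had means of 12.75 to 16.23 CPM and GAPDH (a glycolytic enzyme) of 4612 to 7482 CPM over the 8 conditions, and neither was called in any comparison. ACTB (beta-actin) was not level between the lines, at 2214 ± 91.2 CPM in PEO1 A and 880 ± 176 CPM in PEO4 A, and it was called lower in PEO4 in the A pair (log2 difference -1.33) and in untreated B cells (-1.16).

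Markers of a carcinoma epithelium were present throughout. The summed level of 8 epithelial genes, among them EPCAM and the keratins KRT7, KRT8, KRT18 and KRT19, ran from 5203 CPM in the lowest PEO4 A library to 16200 CPM in the highest PEO1 B library at 2 h. Of the 8, 0 were called in either direction under PDS relative to untreated cells, beside 7.57 to 22.6% of all genes called. Genes of other cell types were low in sum for leukocytes (8 genes, 2.05 to 7.785 CPM), endothelium (6 genes, 2.81 to 6.88 CPM) and granulosa or Sertoli cells (8 genes, 1.08 to 4.79 CPM). Of the defining markers, CD3E had 0 counts in all 24 libraries and PTPRC at most 2, while CD14 (1.065 to 5.90 CPM over the 8 conditions), ERG (1.93 to 5.69 CPM) and FOXL2 (0.0472 to 2.99 CPM) were detected. CD14 and FOXL2 were called lower in PEO4 in both the A pair (-2.37 and -1.71) and untreated B cells (-1.36 and -3.11). Of the same lists, the leukocyte gene CD79A was called higher in PEO4 in both pairs (1.56 and 2.40). INHA of the granulosa list and the endothelial genes VWF and PECAM1 were called higher in untreated PEO4 B (1.55, 1.73 and 2.48). Of the intestinal or mucinous list (6 genes, 3.735 to 30.6 CPM in sum) KRT20 and TFF3 had 0 counts in all 24 libraries and CDX2 and MUC2 at most 6. The clear cell list summed to 24.9 to 76.6 CPM, nearly all of it ANXA4.

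Per kilobase of canonical transcript, the only scale on which genes are compared here, MSLN stood highest of the 9 in both A lines, in PEO1 B at all 3 times and in untreated PEO4 B, at 86.1 to 357 CPM per kb. WFDC2 took first place in PEO4 B at 2 h and 6 h, with 191.5 and 74.6 CPM per kb, where MSLN had 126 and 60.7. PAX8 and WT1 stood at places 2 to 5 in every condition, at 27.75 to 81.7 and 27.6 to 59.95 CPM per kb. FOLR1 stood eighth in all 4 PEO1 conditions, at 0.0605 to 0.435 CPM per kb, and in the middle of the order in untreated PEO4 A and B, at 81.1 and 36.2 CPM per kb. MECOM ranged from 0.00188 CPM per kb in PEO4 A to 3.86 in PEO1 A. The plot of levels by library shows how far each gene separated the lines and the times.

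**Figure D1:**
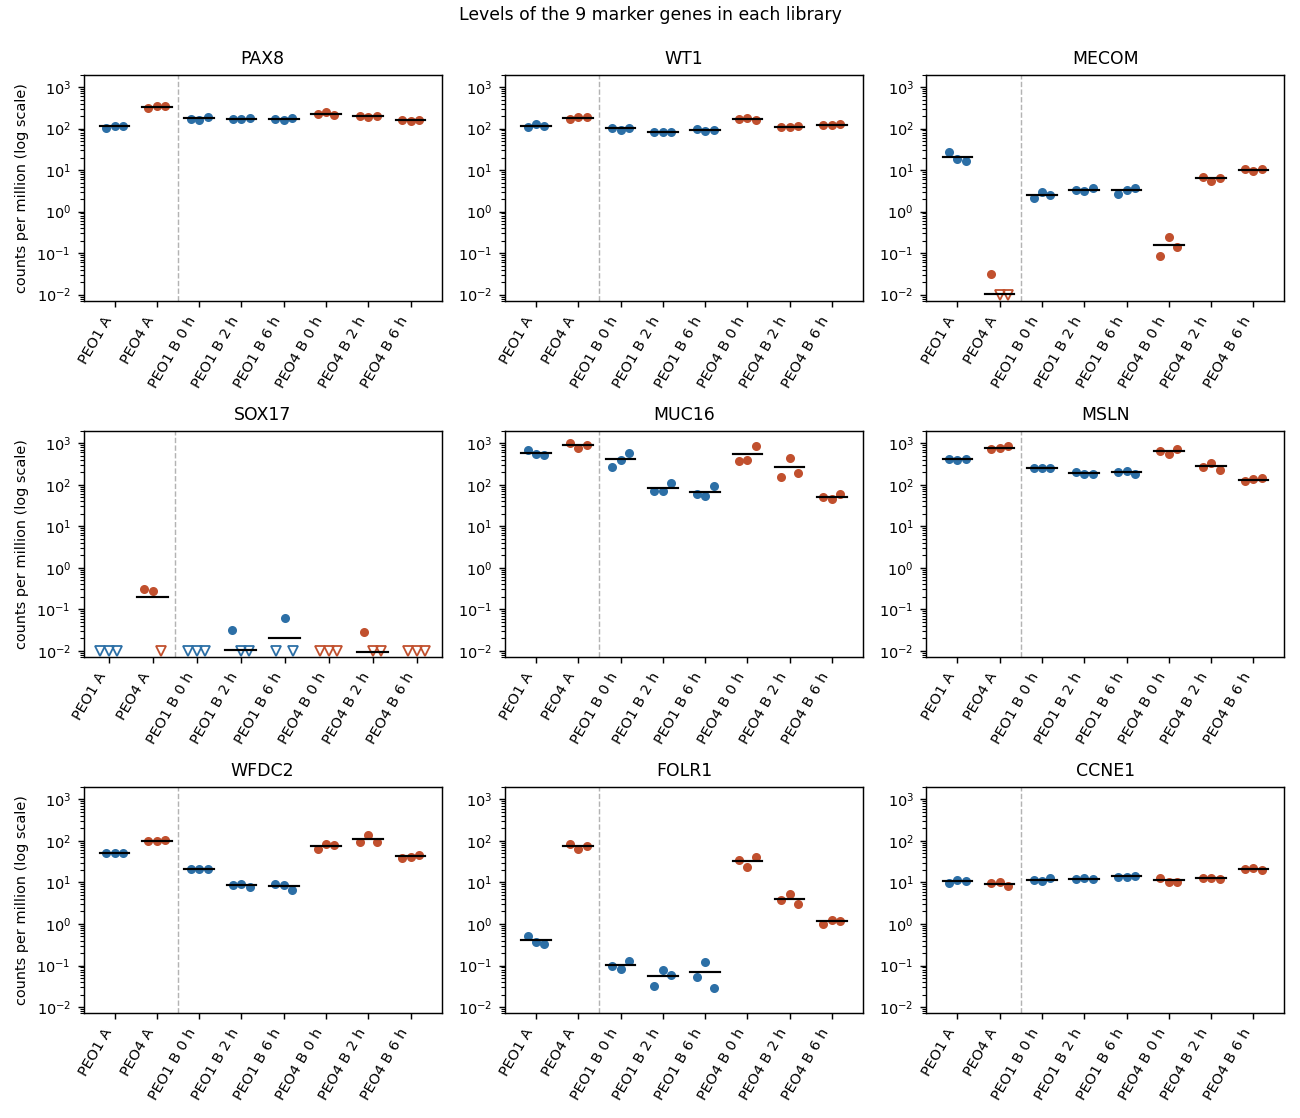
CPM (log axis) of the 9 genes in each library of the 8 conditions, 3 libraries each, with a bar at the mean; PEO1 in blue, PEO4 in red, and the A pair left of the dashed line. Open triangles at the foot of the axis are libraries with 0 counts, and the A and B pairs were scaled separately. FOLR1 lay at 65.7 to 83.1 CPM in PEO4 A against 0.338 to 0.502 in PEO1 A, while MECOM in PEO4 B went from 0.0866 to 0.251 CPM untreated to 9.64 to 10.5 CPM at 6 h.

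The untreated lines were compared first, in both pairs. Between PEO4 A and PEO1 A, 4 of the 8 tested members were called, PAX8, FOLR1 and WFDC2 higher and MECOM lower in PEO4, beside 25.8% of the 15882 genes tested. Between untreated PEO4 B and PEO1 B, 4 of 8 were called, MSLN, FOLR1 and WFDC2 higher and MECOM lower, beside 24.8% of 17020 genes. The median log2 fold change over the tested members was 0.79 in the A pair and 0.56 in the B pair, beside -0.006 and -0.001 over all genes tested. So FOLR1, WFDC2 and MECOM were called in the same direction in both pairs, and PAX8 and MSLN in 1 pair each.

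FOLR1, the high-affinity folate receptor that imports folate and is a target of antibody drugs in this disease, separated the lines most in the upward direction. PEO4 A libraries had 83.1, 65.7 and 77.4 CPM, and PEO1 A libraries 0.502, 0.374 and 0.338 CPM (24, 14 and 18 counts). The groups were far apart, and the log2 fold change was 7.53 ± 0.16 (SE; adjusted p = 3.24e-12). In the B pair, untreated PEO4 B libraries had 35.6, 23.8 and 41.55 CPM. The untreated PEO1 B libraries held 2, 2 and 3 counts of FOLR1, under or at the 3 counts that a count of 0 allows. On summed counts (2199 against 7) the ratio of rates was 329 (95% counting interval 159.6 to 820.1), and the fitted log2 fold change was 8.30 ± 0.34 (adjusted p = 1.25e-14). The other folate receptor genes were low. FOLR2 was called higher in PEO4 A (1.24 against 0.0837 CPM, with 0 to 12 counts per PEO1 A library), and FOLR3 stayed at or under 0.166 CPM in all 8 conditions.

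MECOM, a regulator of stem cell programmes and of transforming growth factor signalling, separated the lines in the opposite direction. PEO1 A libraries had 27.8, 18.8 and 16.55 CPM (706 to 1328 counts), and PEO4 A libraries had 2, 0 and 0 counts. The ratio of summed rates was 1398 in favour of PEO1 A (95% counting interval 387 to 11550; such intervals and the limits given for a count of 0 cover counting error only), and the fitted log2 fold change was -10.21 ± 0.43 (adjusted p = 2.95e-09), a value that depends on how counts near 0 are moderated and was -12.76 without replicate 1 of PEO4 A, which held the 2 counts. Untreated PEO1 B had 2.11, 2.97 and 2.55 CPM and untreated PEO4 B 0.0866, 0.251 and 0.138 CPM (2, 5 and 3 counts). Here too the groups did not overlap, and MECOM was lower in PEO4 by a ratio of 16.6 (95% counting interval 8.81 to 35.2), a fitted log2 fold change of -4.01 ± 0.32 (adjusted p = 3.4e-11). PRDM16, the closest relative of MECOM, was also called lower in PEO4 A, from 0.428 CPM to 0 counts in all 3 libraries, but at these levels it rests on few reads.

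WFDC2, a whey acidic protein family member whose product HE4 is measured in serum beside CA125, had closely spaced replicates. PEO1 A libraries had 50.8, 49.9 and 50.4 CPM and PEO4 A libraries 100.4, 98.5 and 105 CPM, a log2 fold change of 1.01 ± 0.07 (adjusted p = 7.26e-08) that only just exceeded the fold threshold and was 0.98 without replicate 3 of PEO4 A. Untreated PEO1 B libraries had 21.3, 21.4 and 21.25 CPM and untreated PEO4 B libraries 65.2, 85.6 and 80.6 CPM. That difference, 1.85 ± 0.15 (adjusted p = 1.9e-08), was a 3.61-fold higher level in PEO4 B with no overlap.

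PAX8 was called in the A pair alone. It stood at 105, 117 and 115.5 CPM in PEO1 A and at 306, 346.5 and 342 CPM in PEO4 A, 2.94-fold higher (log2 fold change 1.56 ± 0.08, adjusted p = 7.12e-09). In the B pair it was at 172, 162 and 193 CPM in untreated PEO1 B and at 227, 244 and 206.5 CPM in untreated PEO4 B. These groups did not overlap either, but the difference was small, 0.36 ± 0.07 (adjusted p = 4.555e-05). PAX8-AS1 followed the same order, at 2.73 against 13.1 CPM in the A pair (2.26 ± 0.16) and 32.9 against 43.9 CPM in untreated B cells (0.42 ± 0.09). How far its reads enter the PAX8 counts was not tested.

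MSLN, whose protein is a glycosylphosphatidylinositol-anchored partner of MUC16 in peritoneal adhesion, was at 423, 399 and 411 CPM in PEO1 A and at 722, 754 and 878 CPM in PEO4 A, a log2 difference of 0.93 ± 0.09 (adjusted p = 1.58e-06) just under the fold threshold. In untreated PEO1 B it was at 253, 260 and 259 CPM and in untreated PEO4 B at 666, 546 and 741 CPM, 2.53-fold higher (1.34 ± 0.13, adjusted p = 2.23e-07). PEO4 was above PEO1 in every library of both pairs.

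WT1 and MUC16 were also higher in PEO4 A, without reaching the fold threshold. WT1 had 109, 125 and 116 CPM in PEO1 A and 172, 187 and 186 CPM in PEO4 A (0.64 ± 0.08, adjusted p = 1.19e-05), and in untreated B cells 104, 94.2 and 104 CPM against 167, 175 and 157 CPM (0.72 ± 0.06, adjusted p = 1.84e-11). For MUC16 the A libraries lay at 682, 555 and 517 CPM in PEO1 and at 1030, 751 and 901 CPM in PEO4 (0.61 ± 0.13, adjusted p = 0.0015). In untreated B cells MUC16 spread widely, over 266, 395 and 579 CPM in PEO1 and 375, 388 and 871 CPM in PEO4, so the groups overlapped and the log2 difference was 0.40 ± 0.44 (adjusted p = 0.446, 95% interval -0.47 to 1.27). CCNE1 was at 9.98, 11.7 and 10.65 CPM in PEO1 A and 9.445, 10.2 and 8.42 CPM in PEO4 A (-0.20 ± 0.13, adjusted p = 0.196). In untreated B cells it was at 11.3, 10.6 and 12.6 CPM in PEO1 and 12.9, 10.4 and 10.3 CPM in PEO4, and the 95% interval of the log2 difference was -0.22 to 0.15.

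SOX17 was the 1 member without a signal in most libraries. Replicates 1 and 2 of PEO4 A held 20 and 10 counts and replicate 3 held 0, which at its depth allows up to 0.0918 CPM, so the 3 PEO4 A libraries differed among themselves. All 3 PEO1 A libraries held 0 counts, with limits of 0.0564 to 0.0801 CPM. In the B pair single libraries of PEO1 at 2 h, PEO1 at 6 h and PEO4 at 2 h held 1, 2 and 1 counts and the other 15 held 0, with limits of 0.07155 to 0.151 CPM. SOX17, alone of the 9 markers, was therefore at or under the limit of detection in 7 of the 8 conditions, and no fold is given. It entered the test of the A pair only when the filter was loosened, and was then called higher in PEO4 A, in 4 of the 6 fits that left out 1 library (adjusted p = 0.00242 to 0.0328) and with no filter on low counts (adjusted p = 0.00562), on the reads of replicates 1 and 2 alone.

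**Figure D2:**
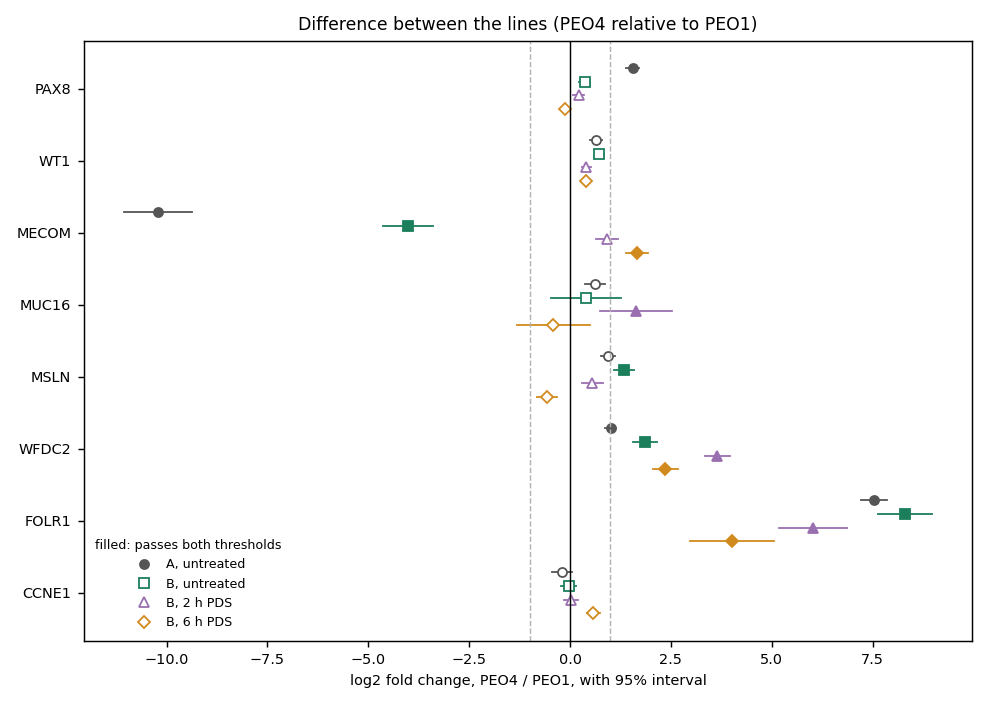
Log2 fold change of PEO4 relative to PEO1 with its 95% interval for the 8 tested members, in untreated A cells and in B cells untreated, at 2 h and at 6 h of PDS; dashed lines mark a change of 1. Filled symbols passed both thresholds. MECOM moved from -4.01 untreated to 1.66 at 6 h in the B pair, and FOLR1 from 8.30 to 4.02.

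The response to PDS was compared within each B line. In PEO1 B, 2 of 8 members were called at 2 h, MUC16 and WFDC2, both lower, beside 7.57% of 17020 genes. The same number and the same members were called at 6 h, both lower, beside 8.13%. Between 6 h and 2 h no member was called in PEO1 B, beside 0.170% of genes, and none had an unadjusted p under 0.05 other than WT1 (0.0177) and CCNE1 (0.0336). In DESeq2 the number was also 0. In PEO4 B, 3 of 8 were called at 2 h, MECOM higher and MSLN and FOLR1 lower, beside 17.4%. At 6 h 4 of 8 were called, MECOM higher and MSLN, FOLR1 and MUC16 lower, beside 22.6%. From 2 h to 6 h in PEO4 B 4 of 8 were called, MSLN, FOLR1, MUC16 and WFDC2, all lower, beside 12.0%. The 2 h and 6 h comparisons of a line share its untreated libraries, and the comparisons of 6 h with 2 h are between treated libraries alone.

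Over all genes tested in PEO4 B at 6 h, 1066 were called higher and 2782 lower. With library totals as the scale, not TMM, the median of all genes was lower by 0.129 to 0.16 on the log2 scale in the 4 comparisons of PDS with untreated cells, and the calls were 698 higher and 3334 lower in PEO4 B at 6 h. No called member changed direction under it, and WFDC2 passed the fold threshold (-1.03).

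MECOM rose in PEO4 B from almost no reads. Untreated libraries had 2, 5 and 3 counts (0.0866, 0.251 and 0.138 CPM), libraries at 2 h had 246, 197 and 272 counts (6.83, 5.58 and 6.53 CPM) and libraries at 6 h had 441, 316 and 352 counts (10.5, 9.64 and 10.5 CPM). No library of one time reached the range of another. The ratio to untreated was 40.95 at 2 h (95% counting interval 22.1 to 85.8) and 66.4 at 6 h (36.0 to 139), with fitted log2 fold changes of 5.32 ± 0.26 (adjusted p = 1.48e-14) and 6.01 ± 0.25 (adjusted p = 4.13e-16). PEO1 B, which started higher, had 3.24, 3.13 and 3.70 CPM at 2 h and 2.66, 3.40 and 3.67 CPM at 6 h, beside 2.11 to 2.97 CPM untreated, a log2 difference of 0.39 ± 0.16 (adjusted p = 0.0483) at 2 h and 0.34 ± 0.16 (adjusted p = 0.0872) at 6 h. The order of the lines was therefore turned. At 2 h MECOM was 0.91 ± 0.14 higher in PEO4 B than in PEO1 B on the log2 scale, under the fold threshold, and at 6 h 3.16-fold higher (1.66 ± 0.14, adjusted p = 6.99e-11).

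FOLR1 fell in PEO4 B from 35.6, 23.8 and 41.55 CPM untreated to 3.83, 5.32 and 2.95 CPM at 2 h and to 1.002, 1.28 and 1.197 CPM at 6 h. The time points did not overlap. The log2 fold change was -3.07 ± 0.19 at 2 h (adjusted p = 1.52e-11) and -4.87 ± 0.22 at 6 h (adjusted p = 1.13e-13), a 29.2-fold lower level at 6 h. From 2 h to 6 h it fell by a further 1.80 ± 0.24 (adjusted p = 2.35e-06). PEO1 B held 1 to 4 counts of FOLR1 per library at all 3 times, so no change can be read there, and FOLR1 was still higher in PEO4 B at 6 h (124 against 7 summed counts, a ratio of 17, 95% counting interval 8.02 to 43.2).

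MSLN, at 666, 546 and 741 CPM in untreated PEO4 B, was at 266, 337 and 229 CPM at 2 h and at 121, 134.5 and 145 CPM at 6 h. Each time point lay wholly under the one before. Its log2 fold change was -1.23 ± 0.13 at 2 h (adjusted p = 6.88e-07) and -2.29 ± 0.13 at 6 h (adjusted p = 5.545e-10), 4.885-fold lower. The fall from 2 h to 6 h was 1.06 ± 0.13 in size (adjusted p = 5.125e-06) and came to -0.89 without replicate 2 of PEO4 B at 2 h and -0.98 without replicate 1 at 6 h, both inside the fold threshold. PEO1 B moved from 253 to 260 CPM untreated to 182 to 200 CPM at 2 h and 178 to 213 CPM at 6 h (-0.44 ± 0.13 and -0.37 ± 0.13), under the fold threshold. At 6 h MSLN in PEO4 B was below that in PEO1 B by 0.58 ± 0.13 on the log2 scale (adjusted p = 0.00105), opposite to the untreated cells.

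WFDC2 fell in PEO1 B at both times. There it went from 21.3, 21.4 and 21.25 CPM to 8.56, 9.33 and 7.995 CPM at 2 h and 9.004, 8.85 and 6.75 CPM at 6 h, with log2 fold changes of -1.30 ± 0.16 (adjusted p = 8.77e-06) and -1.38 ± 0.17 (adjusted p = 4.9e-06). In PEO4 B it was at 65.2, 85.6 and 80.6 CPM untreated, at 94.8, 136 and 94.5 CPM at 2 h (0.49 ± 0.13, adjusted p = 0.00453) and at 39.8, 41.6 and 45.6 CPM at 6 h (-0.87 ± 0.14, adjusted p = 4.19e-05), neither past the fold threshold. From 2 h to 6 h it fell 2.57-fold in PEO4 B (-1.36 ± 0.14, adjusted p = 5.24e-07). The line difference accordingly was widest at 2 h, when WFDC2 was 12.55-fold higher in PEO4 B (3.65 ± 0.16, adjusted p = 6.83e-12), and at 6 h it was 5.15-fold higher (2.36 ± 0.16, adjusted p = 1.83e-09).

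MUC16 fell in both lines. PEO1 B went from 266, 395 and 579 CPM to 72.0, 72.6 and 109 CPM at 2 h and to 59.1, 54.6 and 92.25 CPM at 6 h, without overlap with untreated cells (-2.29 ± 0.47, adjusted p = 0.00117 and -2.59 ± 0.47, adjusted p = 0.000496). PEO4 B went from 375, 388 and 871 CPM to 157.5, 442 and 190 CPM at 2 h, where 1 library lay inside the untreated range, and to 50.9, 44.3 and 59.7 CPM at 6 h. The 2 h difference was -1.05 ± 0.45 with adjusted p = 0.055, and it passed both thresholds without replicate 2 at 2 h (-1.645, adjusted p = 0.006035) or without replicate 1 or 2 of untreated cells (-1.26 and -1.24, adjusted p = 0.04025 and 0.0424), and with all libraries under library totals, upper-quartile scaling, DESeq2 and a stricter count filter. At 6 h the level was 10.55-fold lower (-3.40 ± 0.49, adjusted p = 3.61e-05). At 2 h alone MUC16 was called between the lines, 3.11-fold higher in PEO4 B (1.64 ± 0.46, adjusted p = 0.006055). Without replicate 2 of PEO4 B at 2 h, the library at 442 CPM, that log2 difference was 1.035 and was still called.

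PAX8, WT1 and CCNE1 never passed the fold threshold under PDS. PAX8 was at 166, 170 and 179 CPM in PEO1 B at 2 h and at 168, 161 and 184 CPM at 6 h, with 95% intervals of the log2 change of -0.17 to 0.10 and -0.17 to 0.09. In PEO4 B it was at 203, 192 and 203 CPM at 2 h and at 158, 151 and 163 CPM at 6 h, below every untreated library (-0.52 ± 0.07, adjusted p = 2.06e-07 at 6 h). WT1 was at 82.6 to 95.6 CPM in treated PEO1 B, beside 94.2 to 104 CPM untreated. Its log2 change there was -0.27 ± 0.06 at 2 h (adjusted p = 0.000236) and -0.13 ± 0.06 at 6 h (adjusted p = 0.0513). In PEO4 B WT1 was at 111, 106 and 114 CPM at 2 h and 119, 120 and 126 CPM at 6 h, below the untreated 157 to 175 CPM (-0.59 ± 0.05 and -0.46 ± 0.05, adjusted p = 1.12e-09 and 5.98e-08). CCNE1 alone of these stood higher after PDS. In PEO4 B it was at 12.5, 13.2 and 11.95 CPM at 2 h, and at 20.8, 22.1 and 20.1 CPM at 6 h, 1.87-fold above untreated cells (0.90 ± 0.09, adjusted p = 2.28e-09). Its log2 change at 6 h was 1.03 without replicate 1 of untreated PEO4 B. In PEO1 B CCNE1 was at 13.8, 13.9 and 14.5 CPM at 6 h (0.30 ± 0.09, adjusted p = 0.00803).

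**Figure D3:**
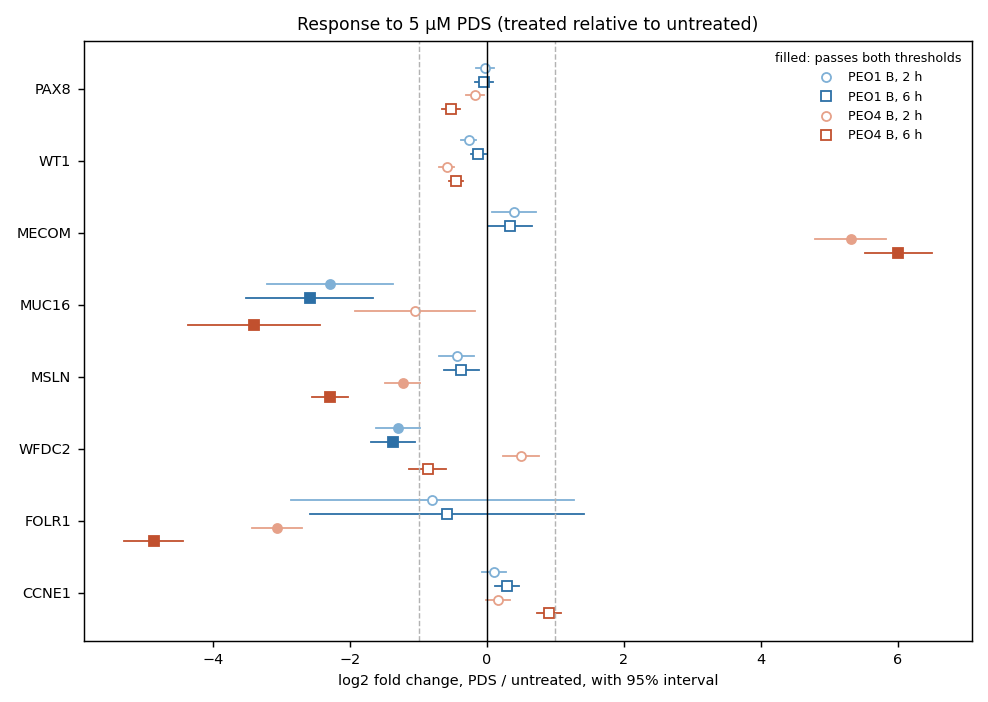
Log2 fold change under 5 µM PDS relative to untreated cells with its 95% interval for the 8 tested members, in PEO1 B and PEO4 B at 2 h and 6 h; dashed lines mark a change of 1, and filled symbols passed both thresholds. MECOM stood at 5.32 and 6.01 in PEO4 B and FOLR1 at -3.07 and -4.87, and the wide FOLR1 bars of PEO1 B reflect 1 to 4 counts per library.

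Whether the lines differed in their response was tested directly, as the response of PEO4 B minus that of PEO1 B. At 2 h 2 of 8 members were called, MECOM (4.93 ± 0.345, adjusted p = 6.3e-11) and WFDC2 (1.80 ± 0.21, adjusted p = 9.2e-06), both more positive in PEO4 B, beside 11.0% of genes. At 6 h 3 of 8 were called, beside 14.8%: MECOM (5.67 ± 0.33, adjusted p = 3.26e-12) more positive, and MSLN (-1.92 ± 0.18, adjusted p = 7.84e-07) and FOLR1 (-4.28 ± 1.23, adjusted p = 0.00729) more negative in PEO4 B. The FOLR1 value uses 1 to 4 counts per PEO1 B library, and its adjusted p was 0.096 without replicate 2 of PEO1 B at 6 h. FOLR1 was near 0 in PEO1 B before PDS, so a fall there could not have been seen. At either time its difference therefore reflects the fall in PEO4 B and cannot show whether the lines respond differently. For MUC16, which fell in both lines, the difference in response was 1.24 ± 0.63 at 2 h (adjusted p = 0.148) and -0.81 ± 0.64 at 6 h (adjusted p = 0.328). At 2 h it passed both thresholds without replicate 3 of untreated PEO4 B (1.75, adjusted p = 0.0408), and FOLR1 did so without replicate 2 (-2.475, adjusted p = 0.0467) or in DESeq2 (-2.25, adjusted p = 0.0262), against -2.27 and 0.15 with all libraries in edgeR. For WFDC2 the 6 h difference was 0.51 ± 0.21 (adjusted p = 0.0636), so it was called at 2 h alone. For CCNE1 the 6 h difference was 0.61 ± 0.13 (adjusted p = 0.000349), and for PAX8 and WT1 it was -0.48 ± 0.10 and -0.33 ± 0.08 (adjusted p = 0.000193 and 0.00122), all under the fold threshold. Under treatment, 3 of 8 members differed between the lines at 2 h, FOLR1, MUC16 and WFDC2, all higher in PEO4 B, beside 26.5% of genes. At 6 h 3 of 8 did so, MECOM, FOLR1 and WFDC2, all higher in PEO4 B, beside 23.0%.

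These are bulk libraries, in which fewer cells carrying a transcript and less of it per cell cannot be told apart. They are of cultured carcinoma lines, and the labels name no other cell type, so the lists below describe genes expressed and not cells present. MSLN, WT1 and MUC16 are also made by mesothelium. A list of 10 further mesothelial genes summed to 206 to 377 CPM in untreated PEO4 B, 83.5 to 85.9 CPM at 2 h and 94.3 to 104 CPM at 6 h. KRT5 was the largest part untreated, at 174 CPM, and was at 10.7 and 21.4 CPM under PDS, whereas BNC1 was the largest part under PDS, at 38.1 CPM untreated and 41.5 and 44.4 CPM at 2 h and 6 h. Over the same times UPK3B was at 72.1, 10.6 and 7.02 CPM, CALB2 at 0.206, 7.30 and 2.17 CPM and LRRN4 at 2.01, 5.77 and 17.9 CPM. ITLN1, HP and PLA2G2A were at 0 to 0.0167 CPM in PEO4 B. In PEO1 B the sum was 1242 to 1526 CPM over the 3 times, nearly all of it KRT5, with means of 1345, 1394 and 1225 CPM. Of the 6 tested genes of the list 2 were called higher and 2 lower in PEO4 B at 6 h, beside 22.6% of all genes called. The tubal ciliated list (8 genes) summed to 82.6 to 122.5 CPM in untreated PEO4 B, 144 to 205 CPM at 2 h and 57.1 to 59.8 CPM at 6 h, of which CAPS made up 86.4, 161 and 49.5 CPM, the same order over time as WFDC2, while its defining factor FOXJ1 was at 0.0462 to 0.516 CPM. Fibroblast genes (8) summed to 385.7 to 426 CPM in PEO1 A and 80.1 to 111 CPM in PEO4 A. Over the 3 times they summed to 109.6 to 134.8 CPM in PEO1 B and 41.7 to 101.9 CPM in PEO4 B. Of the 5 tested in untreated B cells 3 were called higher in PEO4 and 1 lower, beside 24.8% of all genes called. COL1A2 and COL3A1 were higher (6.68 and 10.73, with at most 2 counts per untreated PEO1 B library) and THY1 was lower (-3.74). Of the 4 tested in the A pair 1 was called higher and 3 lower in PEO4, beside 25.8% of all genes called. In PEO4 B at 6 h of PDS 1 of the 5 was called higher and 3 lower, beside 22.6%. The part of these genes in the members' changes was not tested.

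Other factors of the Müllerian duct and its derivatives made up a list of 16 genes. Of the 11 tested in the A pair 2 were called higher and 6 lower in PEO4, beside 25.8% of all genes called, and of the 12 tested in untreated B cells 3 higher and 6 lower, beside 24.8%. EMX2 and MEIS1, homeobox factors of the urogenital tract, were higher in PEO4 in both pairs, EMX2 at 147 against 36.8 CPM (A) and 86.8 against 18.1 CPM (B), and MEIS1 at 322 against 94.2 and 118 against 24.6 CPM. MEIS2 was lower in both, at 0.209 against 54.6 CPM in the A pair and 0.0768 against 6.34 CPM in the B pair. HOXA10, a factor of the uterine segment of the duct, was at 0.811 and 7.40 CPM in PEO1 A and B and at 0.024 and 0.0745 CPM in PEO4 A and B. LHX1 and HOXA9 were detected in untreated PEO1 B (3.89 and 0.849 CPM) and had 0 counts in untreated PEO4 B. PAX2, the closest relative of PAX8, had 0 CPM in 7 of the 8 conditions and 0.0101 CPM in the last.

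Under PDS none of the 12 was called in PEO1 B at 2 h and 1 was called lower at 6 h, beside 7.57 and 8.13% of all genes. In PEO4 B 3 were called higher at 2 h, and 3 higher and 2 lower at 6 h, beside 17.4 and 22.6%. The median log2 fold change of the 12 in PEO4 B at 6 h was 0.16, beside -0.028 over all genes. SOX9, an SRY-related factor of epithelial progenitors, rose from 31.5 ± 26.9 to 161 ± 1.67 CPM (2.37 ± 0.39, adjusted p = 0.000118). Its untreated libraries were at 21.9, 61.8 and 10.7 CPM, and without replicate 2, the highest, the log2 fold change was 3.31. MEIS2 rose from 0.0768 to 0.643 CPM (3.02 ± 0.47, adjusted p = 3.61e-06), from 3, 2 and 0 counts untreated, and by 3.67 without replicate 1 of untreated cells. ESR1, the oestrogen receptor, fell from 223 to 101 CPM (-1.14 ± 0.06, adjusted p = 9.55e-15).

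Of 22 further secreted and surface genes of serous carcinoma, 21 were tested in the A pair, with 6 called higher and 8 lower in PEO4, beside 25.8% of all genes called, and 20 in the B table, with 6 higher and 6 lower in untreated PEO4 B, beside 24.8%. CRABP2, which carries retinoic acid to its receptor, and LCN2, a secreted iron-binding lipocalin, were higher in PEO4 in both pairs, CRABP2 at 922 against 134.5 CPM and 332 against 116 CPM, and LCN2 at 395 against 75.6 CPM and 309 against 96.5 CPM. The cadherin CDH6 and the mucin MUC1 were lower in PEO4 A, CDH6 at 26.5 against 224 CPM and MUC1 at 0.12 against 1.38 CPM. In untreated B cells CD24 was at 67.3 CPM in PEO4 against 343 CPM in PEO1, and the phosphate transporter SLC34A2 at 0.183 against 1.16 CPM.

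Under PDS 7 of the 20 were called higher and 3 lower in PEO4 B at 2 h, beside 17.4% of all genes called. At 6 h 3 were higher, 9 lower and 8 not called, beside 22.6%. From 2 h to 6 h 0 were higher, 11 lower and 9 not called, beside 12.0%, with a median log2 change of -1.2 beside -0.021 over all genes. In PEO1 B 3 were called lower at 2 h and 4 at 6 h, and 0 higher, beside 7.57 and 8.13% of all genes called. At 6 h in PEO4 B the kallikreins KLK11 and KLK10 fell by 3.86 ± 0.22 (adjusted p = 1.49e-13) and 2.37 ± 0.16 (adjusted p = 4.74e-09) on the log2 scale, from 6.47 to 0.441 CPM and from 361 to 69.9 CPM. CDH6, in contrast, was at 30.1 ± 21.5 CPM untreated, 223 ± 17.8 CPM at 2 h and 86.8 ± 0.675 CPM at 6 h (1.54 ± 0.32, adjusted p = 0.000756). SPP1, which encodes osteopontin, was at 4.02 ± 3.36 CPM untreated and 8.605 ± 1.19 CPM at 6 h (1.13 ± 0.38, adjusted p = 0.0177). In both genes replicate 2 of untreated PEO4 B was the highest, at 54.7 and 7.885 CPM, and without it the values were 2.30 and 2.045. SPP1 was not called without replicate 1 or 3 of untreated PEO4 B (0.86 and 0.78, adjusted p = 0.0778 and 0.0673).

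Family relatives of the members, 21 genes of which MUC1, SLPI, PAX2 and CCNE2 also stand in another list, were mostly at low levels. Of 14 tested in the A pair 3 were called higher and 8 lower in PEO4, beside 25.8% of all genes called, and of 13 in untreated B cells 3 higher and 5 lower, beside 24.8%. MUC3A and MUC12, membrane mucins like MUC16, had 0.767 and 0.381 CPM in PEO1 A and 0 counts in PEO4 A. MUC4 was at 39.5 CPM in PEO1 A against 3.50 CPM in PEO4 A, and in PEO1 B it fell under PDS with MUC16, from 52.5 to 12.8 and 11.4 CPM. The early-response factor EGR1, a zinc-finger relative of WT1, was at 118 CPM in untreated PEO1 B and 514 CPM in untreated PEO4 B, and at 7.27 and 48.3 CPM at 6 h. In PEO4 B 0 relatives were called higher and 7 of 13 lower at 6 h, beside 22.6% of all genes called, with a median of -2.17. The largest falls were those of PI3, the elastase inhibitor elafin, from 248 ± 147 to 4.48 ± 0.678 CPM (-5.78 ± 0.40, adjusted p = 2.08e-08) and of SOX18, a relative of SOX17, from 1.69 to 0.0619 CPM (-4.64 ± 0.53, adjusted p = 2.77e-08). In PEO1 B 1 of the 13 was called higher and 4 lower at each time, beside 7.57 and 8.13% of all genes called.

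Of 20 genes around cyclin E, 19 were tested in the A pair, with 3 called higher and 1 lower in PEO4 (21.05%, beside 25.8% of all genes), and 18 in untreated B cells, with 1 higher and 0 lower (5.56%, beside 24.8%). CDKN1A, the CDK inhibitor p21, was the gene called in both, at 12.4 against 4.86 CPM and 25.6 against 8.88 CPM. E2F3 was higher in PEO4 A at 72.7 against 27.6 CPM, and CCND2 was lower at 0.0919 ± 0.133 against 0.427 ± 0.328 CPM, a call held in 2 of the 5 fits without 1 library in which it was tested (lost without replicate 2 of PEO1 A or replicate 1 or 2 of PEO4 A, with -1.545, -1.76 and -1.83). In PEO1 B CDKN1A was called higher at each time (8.88 to 18.2 and 18.7 CPM), as 1 of 18, and 0 were lower, beside 7.57 and 8.13% of all genes called. In PEO4 B 0 were called higher and 2 lower at 2 h, beside 17.4% of all genes called. At 6 h 1 was called higher and 1 lower, beside 22.6%. The phosphatase gene CDC25A went from 17.4 to 37.3 CPM (1.10 ± 0.08, adjusted p = 2.52e-11), and E2F2 from 13.4 to 1.87 CPM (-2.85 ± 0.16, adjusted p = 5.91e-14). CCNE2, the paralog of CCNE1, was at 17.2, 18.1 and 26.1 CPM in PEO4 B and at 18.5, 23.8 and 35 CPM in PEO1 B over the 3 times, 0.92 ± 0.12 higher at 6 h on the log2 scale in PEO1 B.

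WFDC2 lies in a cluster of whey acidic protein genes on chromosome 20, and its neighbours within 500 kb were examined on the same scale. Of 40 protein-coding genes in that window 24 were tested in the B table. In PEO4 B at 6 h 0 were called higher and 4 lower, and those 4, WFDC5, WFDC12, PI3 and SLPI, are all protease inhibitor genes of the cluster on 1 side of WFDC2, 215 to 353 kb from it. Their log2 fold changes were -4.59 ± 0.60, -3.81 ± 0.59, -5.78 ± 0.40 and -2.17 ± 0.19, beside -0.87 for WFDC2 itself and a median of -0.22 over the window. The nearest tested gene on each side, PIGT at 43.5 kb and WFDC3 at 293 kb, were at -0.13 ± 0.05 and -0.96 ± 0.39. Between the untreated B lines 8 of the 24 were higher in PEO4 and 0 lower, among them PI3 (3.29 ± 0.34), WFDC5 (3.01 ± 0.55) and PIGT (1.17 ± 0.05), and in the A pair 9 were higher and 1 lower.

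MECOM had 9 protein-coding genes within 500 kb, all on the side of its outermost start, and 6 were tested. All 6 had lower values in PEO4 than in PEO1 in both pairs, with 4 called lower in the A pair and 2 in the B pair, and medians of -1.198 and -0.97. In PEO4 B at 6 h 2 were called higher, ACTRT3, 103 kb away (1.25 ± 0.16, adjusted p = 2.18e-07), and GPR160, 374 kb away (1.02 ± 0.10, adjusted p = 1.25e-08), with a median of 0.41. These values were far smaller than those of MECOM. Around CCNE1 0 of 4 tested neighbours were called in the A pair, in untreated B cells or under PDS, with log2 fold changes of 0.44 to 0.99 in PEO4 B at 6 h, beside 0.90 for CCNE1. For FOLR1 the nearest neighbours tested in the B table, INPPL1 and ANAPC15, were at -0.85 and 0.68 at 6 h, and 3 of 12 were called lower. In the A pair 11 neighbours of FOLR1 were tested, with 1 called higher in PEO4, FOLR2 (3.79 ± 0.80), and 0 lower. FOLR2 had 0 to 12 counts per PEO1 A library and at most 0.172 CPM in the B conditions. Near PAX8 3 of 8, near MUC16 2 of 18 and near MSLN 5 of 32 tested genes were called lower at 6 h in PEO4 B and 0 higher, and near WT1 and SOX17 1 of 5 and 3 of 5 were called higher and 0 lower. Over all genes 22.6% were called in that comparison, and 25.8% and 24.8% between the untreated A and B lines.

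**Figure D4:**
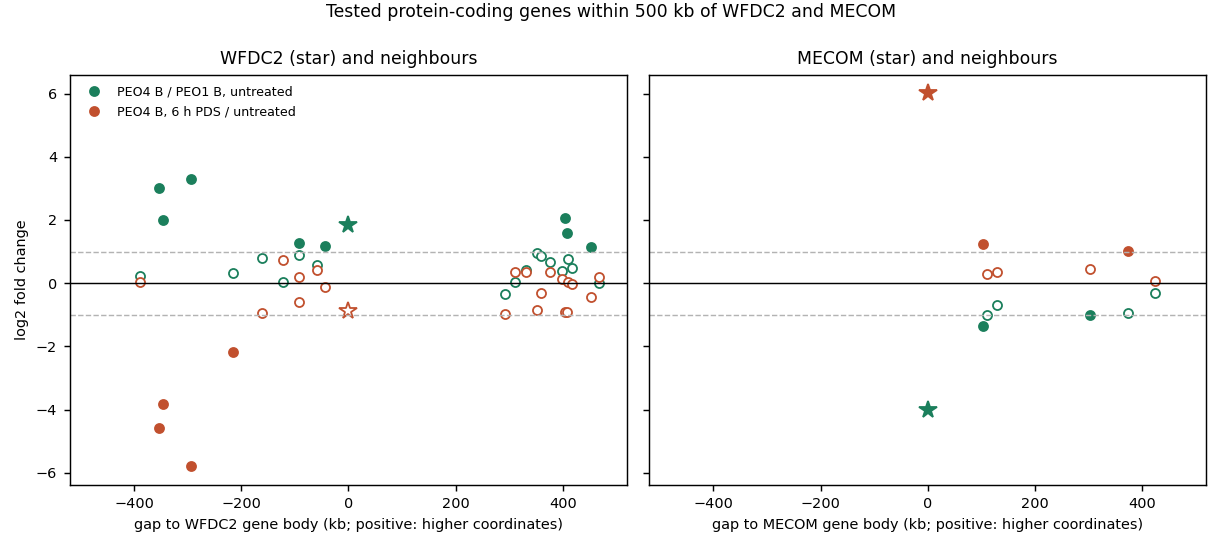
Log2 fold change of tested protein-coding genes against their gap from WFDC2 (left) and MECOM (right) in kb, with the gene itself as a star at 0, for untreated PEO4 B relative to PEO1 B and for PEO4 B at 6 h of PDS relative to untreated; filled symbols passed both thresholds. Left of WFDC2 4 inhibitor genes lay at -2.17 to -5.78 at 6 h, and around MECOM no neighbour rose by over 1.25.

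Within the 18 B libraries the genes whose log2 CPM followed each member most closely were named as a description, since the libraries share 6 conditions and 2 lines. Among 9611 protein-coding genes with a mean log2 CPM of at least 3, THEM6 was most like FOLR1 (Pearson r = 0.996), SNCG and HSPB1 were most like WFDC2 (0.991 and 0.989) and TIMP2 and CYBRD1 most like MSLN (0.982 and 0.98). SPATS2L and ADORA2B were most like MECOM (0.9765 and 0.969), CDSN and ZNF503 most like WT1 (0.98 and 0.979), IFT46 and SPINDOC most like CCNE1 (0.965 and 0.952), HSPG2 and TMEM254 most like MUC16 (0.9555 and 0.955) and COL6A1 and SORL1 most like PAX8 (0.934 and 0.906). Among the members themselves WT1 and FOLR1 were most alike (r = 0.91) and MSLN and MECOM least (r = -0.899) over these libraries.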

How the data were processed

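RNA-seq was analysed from 2 deposited tables of read counts per gene, which the authors made with FastQC, fastp, STAR and featureCounts on hg38 according to the submitters' processing notes and the study's methods. The authors' own differential tests used DESeq2. The annotation and the strand setting of the counting are not given in the sources used here. The A data held 6 libraries and the B data 18, with 3 biological replicates per condition, and 2 lines (A) and 1 line (B) without readable counts were left out. No per-sample column lacked a sample (0 in each table). The tables were scaled (TMM) and tested separately, so levels were not tested across them.

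Genes were kept by filterByExpr (minimum count 10, minimum total 15) and tested with edgeR's quasi-likelihood test (edgeR 4.0.16, R 4.3.3) with Benjamini-Hochberg adjustment over 15882 (A) or 17020 (B) genes. The thresholds were an adjusted p of 0.05 and an absolute log2 fold change of 1. The fit was tested on simulated data with changes placed in well-counted genes only, so recovery of changes in genes near 0 counts was not tested. Count ratios have exact 95% counting intervals. The SE of a log2 fold change is its size divided by the square root of the test's F. Its 95% interval is a normal approximation from that SE and can be narrower than the test allows. For MECOM in PEO1 B at 6 h the interval was 0.016 to 0.66, while edgeR's unadjusted p was 0.0507. The members and the gene lists were chosen with earlier results of these data known. All 9 members are named, of each gene list the 2 called genes with the largest increase and the 2 with the largest decrease in the A pair, in untreated B cells and in PEO4 B at 6 h, per member the 2 genes most like it, the nearest tested neighbours on each side within 500 kb, overlapping antisense genes, ACTB, GAPDH, TBP and BRCA2. Other genes given with values were chosen after those values were seen. A few genes that this rule names are not reported here. Gene positions and transcript lengths are from GRCh38 annotation, promoters from RefSeq (26982 symbols of the tables matched).

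Alternatives were library totals, upper-quartile and DESeq2 scaling, the DESeq2 Wald test (DESeq2 1.42.0), other count filters, adjusted p alone, a replicate block and leaving out each library, which was extended to the named list genes after the data had been seen. Same-numbered libraries did not deviate together (correlations -0.0429 to 0.0228 in A, -0.158 to 0.134 in B), so the numbers were not treated as pairs.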

Additional observations from a re-analysis of the deposited data

Results flagged for a closer look

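4 of the members were called in a direct test of the line difference in response to PDS (edgeR's quasi-likelihood test, Benjamini-Hochberg adjustment). The difference is given as the log2 response of PEO4 B minus that of PEO1 B. For MECOM it was 4.93 at 2 h and 5.67 at 6 h. WFDC2 differed at 2 h by 1.80, MSLN at 6 h by -1.92 and FOLR1 at 6 h by -4.28, the last with 1 to 4 counts in each PEO1 B library. Groups of 3 libraries were not tested for outliers.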

How the results depend on the processing

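Members called in the comparisons kept their direction under every alternative run. With adjusted p alone the number of members called was 7 of 8 in the A pair. Between the B lines it was 6 untreated, 7 at 2 h and 6 at 6 h. In PEO1 B it was 5 at 2 h, 4 at 6 h and 0 from 2 h to 6 h. In PEO4 B it was 6 at 2 h, 8 at 6 h and 8 from 2 h to 6 h. For the line difference in response it was 4 and 6. The share of all genes at adjusted p alone is not given here, so these counts have no background beside them. Leaving out 1 library gave 4 to 5 called members in the A pair, SOX17 among them where it entered the test, 3 to 4 in PEO4 B at 2 h, 4 to 5 at 6 h, 3 to 4 from 2 h to 6 h, and 2 to 3 for both line differences in response, and it left the other 6 counts as they were. MUC16 in PEO4 B at 2 h passed both thresholds with library totals (-1.18, adjusted p = 0.0368), upper-quartile scaling (-1.11, 0.047), DESeq2 (-1.07, 0.0343) and 10 counts in every library of a group (-1.07, 0.0498). The fit with a replicate block called the same number of members in all 12 comparisons (4, 4, 3, 3, 2, 2, 0, 3, 4, 4, 2 and 3), and the replicate numbers do not pair the libraries. Signs turned only for values that were not called. With library totals CCNE1 in PEO1 B at 2 h was at -0.0473. Over the fits that left out 1 library, the log2 differences between untreated B lines ran from -0.12 to 0.72 for MUC16 and from -0.147 to 0.0375 for CCNE1, and between lines at 2 h from -0.0131 to 0.0544 for CCNE1. PAX8 in PEO1 B ran from -0.0789 to 0.046 at 2 h, from -0.0846 to 0.0403 at 6 h and from -0.0602 to 0.0352 from 2 h to 6 h. From 2 h to 6 h in PEO1 B WFDC2 ran from -0.149 to 0.0479, FOLR1 from -0.41 to 0.55 and MECOM from -0.151 to 0.0757, and CCNE1 in the 2 h line difference in response from -0.0172 to 0.168. The cause was not tested. Few or no counts were held by SOX17 in 7 of the 8 conditions, by FOLR1 in PEO1 B, and by MECOM in PEO4 A and untreated PEO4 B.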
